A study of Mus musculus with 8 samples.

Results

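The genes described here are the core of the insulin signalling pathway: Insr, Igf1r, Irs1, Irs2, Pik3ca, Pik3r1, Akt1, Akt2, Pde3b and Foxo1. They were chosen by name from the deposited table, with 1 transcript per gene, and make up 10 of 22869 genes. All 10 were present and all 10 passed the filter on low counts, with 535 to 13490 reads per library. RNA-seq of polyadenylated RNA was made from inguinal white fat, a subcutaneous depot. Wild-type mice (4 libraries) were compared with Fabp4-Ebf2 mice (4 libraries), in which the Fabp4 promoter, active in adipocytes, drives the transcription factor EBF2 (the table heads this group Ap2-Ebf2, Ap2 being an older name of Fabp4). Animals of both groups were of mixed background, about 6 weeks old, on normal chow at room temperature, and lymph nodes were removed from the tissue. The labels do not say that each library came from its own animal, so p-values measure only the spread between these libraries.

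Insulin binds the insulin receptor, which phosphorylates the IRS adaptor proteins. These recruit phosphoinositide 3-kinase, whose lipid product activates the kinase AKT. In fat cells AKT brings the glucose transporter GLUT4 to the cell surface, keeps the transcription factor FOXO1 out of the nucleus, and acts with the phosphodiesterase PDE3B to restrain lipolysis. Most of this control is by phosphorylation, which transcript counts do not measure. The comparison asks whether raised Ebf2, which changes the thermogenic genes of this depot, moved the transcripts of the pathway that insulin acts through.

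Ebf2 reads rose 15.7-fold, from 27.9 ± 9.30 to 438 ± 148 CPM (SD, n = 4 each; edgeR's quasi-likelihood test, adjusted p = 0.00177). Adjusted p-values follow Benjamini and Hochberg over all tested genes, and 0.05 was the threshold. CPM are counts per 1 M reads after TMM scaling of the libraries, and reads of the transgene and of the endogenous gene were not separated. Brown and beige adipocyte markers summed to 258 to 647 CPM in wild type and 1898 to 6264 CPM in Fabp4-Ebf2. Of these 12 markers 8 rose, beside 2.8% of all tested genes. Adipocyte identity was clear, since each of 10 adipocyte markers lay at or above percentile 96.2 of tested genes. Libraries held 16.9 to 24.7 M reads. The adipocyte markers summed to 31414 to 40513 CPM in wild type against 24049.7 to 26843 CPM in Fabp4-Ebf2. These sums weigh most on Cfd (5458 to 15722 CPM over the libraries) and Fabp4 (7548 to 12570 CPM). Of the 10 markers, 7 had lower and 3 had higher means in Fabp4-Ebf2. Only 1 fell past the test, Retn, which encodes the adipokine resistin, beside 0.62% of all tested genes. An unadjusted p under 0.05 by edgeR was reached by 5 of the 10, all 5 lower, beside 17.5% of all tested genes in either direction. In whole tissue, fewer cells of a type and less RNA per cell cannot be told apart. Skeletal muscle markers, from a tissue that also expresses these genes, summed to 555 to 1617 CPM in wild type against 80.3 to 520.0 CPM in Fabp4-Ebf2. Of 23 tested muscle markers 23 had lower means and 2 fell past the test, beside 0.62% of all tested genes. By edgeR 20 of them had an unadjusted p under 0.05, beside 17.5% of all tested genes. Groups did not overlap for 10 of the 23, beside 11.4% of all tested genes. None of the 24 listed was at 0 in all libraries. The muscle sums of both groups did not overlap. Progenitor markers summed to 4650 to 13250 CPM in wild type, highest in replicate 1, against 3591 to 6115 CPM in Fabp4-Ebf2. Of these 9 markers 7 had lower and 2 had higher means in Fabp4-Ebf2. The 10 lymphocyte markers all had lower means there, and 0 passed the test. A fit with the mean log2 CPM of the muscle markers as a covariate is given with the wider pathway.

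Wild type replicate 2 stood apart in a way that touches these genes. Relative to the other wild-type libraries it was low in long transcripts, and most members have long ones. Over 14705 tested genes with a length, transcripts above 6000 bases lay at a median of -0.27 (log2 CPM minus the group mean) in that library, against 0.10 for transcripts under 3000 bases. The difference between both classes, long minus short, was -0.37 in wild type replicate 2, 0.08 to 0.14 in the other wild-type libraries and -0.02 to 0.01 in the Fabp4-Ebf2 libraries. Macrophage markers (2880.4 CPM in sum) and lymphocyte markers (1939 CPM) were also highest in that library. Of the 10 insulin signalling genes, 9 had their lowest wild-type level in replicate 2, and the remaining gene, Akt1, had its highest there. Akt1 has the shortest transcript of the 10, at 2690 bases, and the other transcripts have 4544 to 11409 bases. Each of the 10 fold changes is therefore given with and without this library, and the part of transcript length in the results was not tested.

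**Figure D1:**
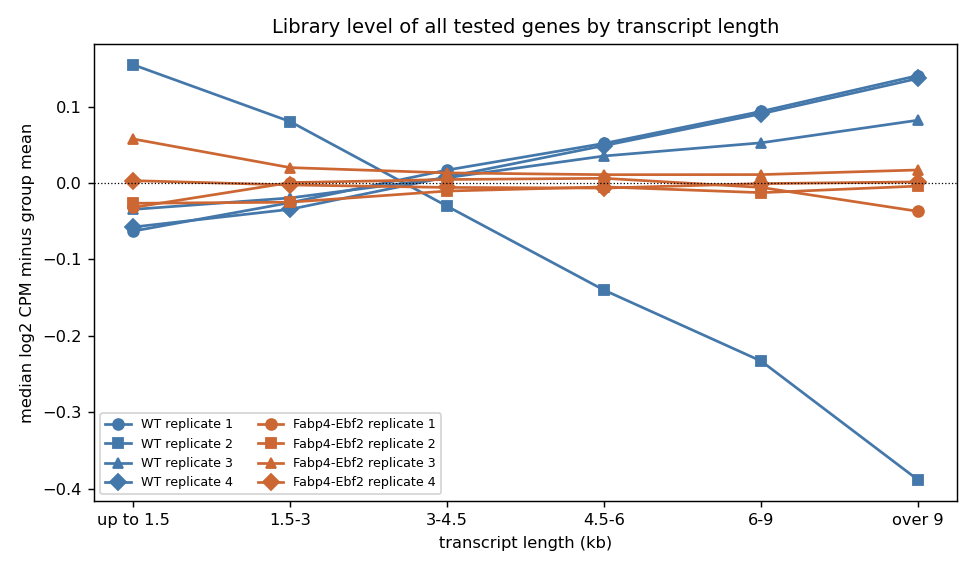
Median level of all tested genes in each library, as log2 CPM minus the mean of its group of 4, against transcript length in kb. Wild type replicate 2 goes from 0.15 for the shortest to -0.39 for the longest transcripts, and since deviations within a group sum to 0, the other wild-type libraries mirror it.

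None of the 10 genes passed the test between genotypes. By edgeR 0 of 10 were higher and 0 lower at an adjusted p under 0.05, against 3.42% of the 15002 tested genes (2.8% higher and 0.62% lower). At an unadjusted p under 0.05 by edgeR the count was also 0 of 10, against 17.5% of all tested genes. DESeq2 and limma-voom called 0 of 10, against 8.23% and 3.03% of all genes they tested. No member had groups without overlap, against 11.4% of all tested genes, though for Irs1 the overlap rested on wild type replicate 2. The median log2 fold change of the 10 was 0.06, against -0.01 for all tested genes, with values from -0.15 (Akt1) to 0.36 (Irs2). In the authors' deposited table the smallest FDR among the 10 was 0.579, for Insr. A p that misses the threshold does not show that levels were equal, so the 95% interval of each fold change follows with its values.

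**Figure D2:**
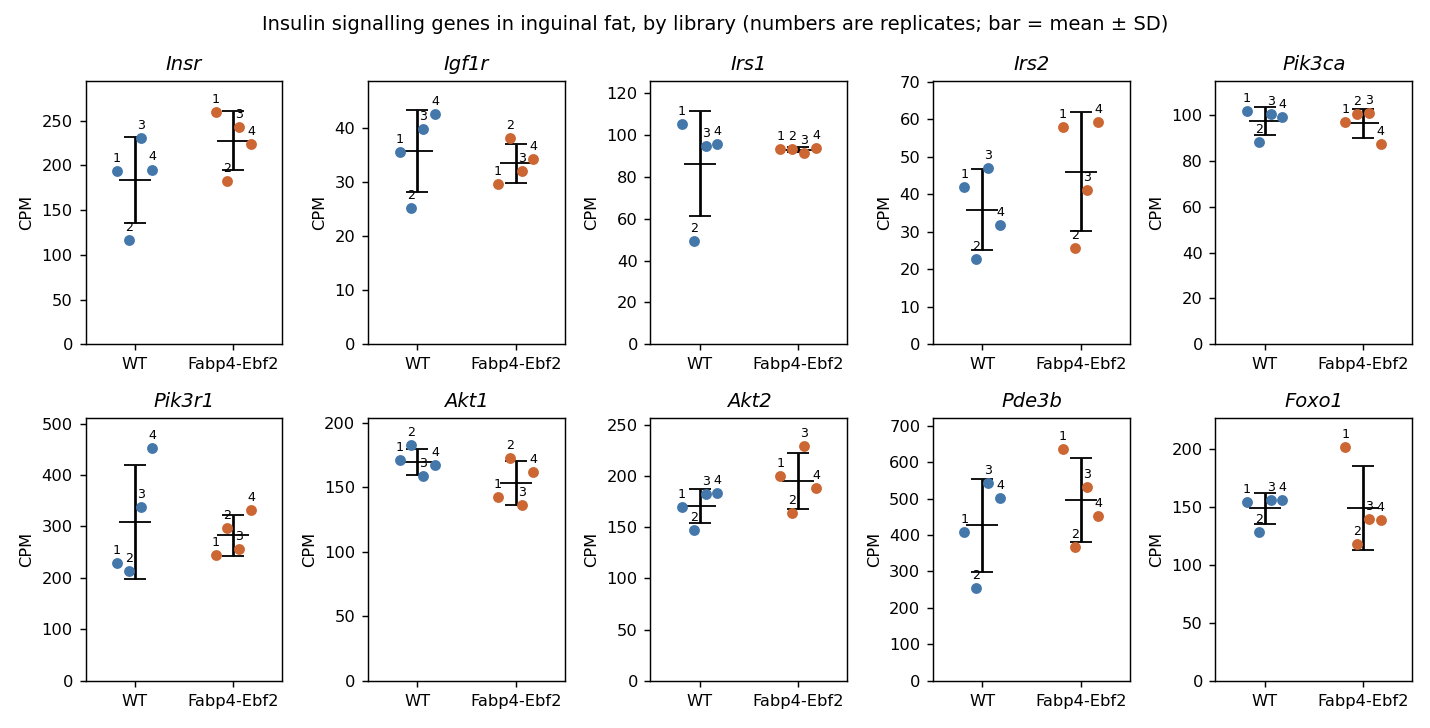
CPM of the 10 genes in each library, with numbers for replicates and bars for the mean ± SD of 4 libraries. Wild-type and Fabp4-Ebf2 points overlap in each panel, and wild type replicate 2 is the lowest wild-type point in 9 of the 10 panels. In the Irs1 panel the overlap rests on that library.

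Insr encodes the insulin receptor, the tyrosine kinase at the head of the pathway. Its wild-type libraries, replicates 1 to 4, had 194, 116, 230.5 and 195 CPM, and its Fabp4-Ebf2 libraries had 259, 183, 243 and 224 CPM. The Fabp4-Ebf2 values were mostly higher, but replicate 2 lay below 3 of the wild-type libraries. The fold was 1.24 with an interval of 0.909 to 1.68 (edgeR adjusted p = 0.452). Leaving out wild type replicate 2 brought the log2 fold change from 0.31 to 0.13 (edgeR adjusted p = 0.628). Igf1r encodes the related receptor for insulin-like growth factors, which mature fat cells express at low levels. It had 35.6, 25.3, 39.8 and 42.6 CPM in wild type against 29.7, 38.1, 32.0 and 34.2 CPM in Fabp4-Ebf2. The groups overlapped widely, and the fold was 0.937, with an interval of 0.735 to 1.20 (edgeR adjusted p = 0.781). On leaving out wild type replicate 2 its log2 fold change was -0.23 instead of -0.09 (edgeR adjusted p = 0.281).

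The adaptors Irs1 and Irs2 carry the signal from the receptor to phosphoinositide 3-kinase. Irs1 had 105, 49.4, 94.6 and 95.5 CPM in wild type. In Fabp4-Ebf2 it had 93.5, 93.2, 91.5 and 93.8 CPM, an SD of 1.05 CPM. The Fabp4-Ebf2 libraries thus lay inside the wild-type range only through wild type replicate 2. The other wild-type libraries, from 94.6 CPM up, lay above each Fabp4-Ebf2 library, the highest of which had 93.8 CPM. Replicate 2 also set most of the wild-type spread, whose SD was 5.98 CPM without it and 25.04 CPM with it. The fold was 1.08, with an interval of 0.794 to 1.47 (edgeR adjusted p = 0.794). Its sign turned without wild type replicate 2, from a log2 fold change of 0.11 to -0.09 (edgeR adjusted p = 0.511). Irs2 had 42.0, 22.7, 47.1 and 31.8 CPM in wild type. It had 57.8, 25.7, 41.2 and 59.3 CPM in Fabp4-Ebf2. Replicates 1 and 4 of Fabp4-Ebf2 were above the wild-type libraries, while replicate 2 was below 3 of them. Irs2 had the largest fold of the 10, 1.28, and also the widest interval, 0.818 to 2.01 (edgeR adjusted p = 0.547). With wild type replicate 2 left out its log2 fold change was 0.18 instead of 0.36 (edgeR adjusted p = 0.779). With the skeletal muscle markers as a covariate its sign turned, to -0.14 (edgeR adjusted p = 0.967).

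The region before the start site of both adaptor genes is shown because it holds, in both, the same 2 short motifs close together. Capitals mark the E-box CACGTG, bound by helix-loop-helix factors, and TGTTTTG, the core of insulin response elements to which FOXO1 can bind. Each sequence runs from 250 bases before to 50 bases after the start, from RefSeq on GRCm38.p6, on the minus strand, at chr1:82291390-82291689 for Irs1 and chr8:11008880-11009179 for Irs2.
Irs1: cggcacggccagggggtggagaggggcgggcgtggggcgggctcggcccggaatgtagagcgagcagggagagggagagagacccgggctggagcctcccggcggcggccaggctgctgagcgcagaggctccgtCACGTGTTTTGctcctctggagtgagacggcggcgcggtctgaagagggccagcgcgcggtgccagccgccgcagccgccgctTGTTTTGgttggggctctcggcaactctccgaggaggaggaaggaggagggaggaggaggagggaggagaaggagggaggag
Irs2: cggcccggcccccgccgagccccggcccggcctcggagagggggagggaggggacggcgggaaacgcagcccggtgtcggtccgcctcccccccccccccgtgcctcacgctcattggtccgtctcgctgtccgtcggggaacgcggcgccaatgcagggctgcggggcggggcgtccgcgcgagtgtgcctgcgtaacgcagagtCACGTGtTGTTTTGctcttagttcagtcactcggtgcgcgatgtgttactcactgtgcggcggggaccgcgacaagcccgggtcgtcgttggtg

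In Irs1 the E-box began 115 bases before the start and overlapped TGTTTTG, which began at 111, with a second TGTTTTG at 32. In Irs2 the E-box began 44 bases before the start and TGTTTTG followed at 37 without overlap. Of 32851 promoters in the table, 7.15% held CACGTG and 6.28% held TGTTTTG, searched on both strands. The table held 13 promoters for 8 of the 10 genes, not including Insr and Pde3b, and each of these motifs was found in 2, those of Irs1 and Irs2. The fuller FOXO consensus TGTTTAC was in 1 of the 13, at Akt1, and in 3.65% of all promoters. The core of the EBF site, CCCNNGGG, was in 2 of the 13, at Foxo1 and at Akt1, and in 13.7% of all promoters. A match is a description of the letters and not a bound site.

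Phosphoinositide 3-kinase joins a catalytic to a regulatory subunit. Pik3ca, which encodes the catalytic subunit p110α, had 102, 88.3, 100.4 and 99.1 CPM in wild type. It had 97.0, 100.5, 101 and 87.5 CPM in Fabp4-Ebf2. The groups overlapped almost fully, and its interval was the narrowest of the 10, a fold of 0.990 with bounds of 0.874 and 1.12 (edgeR adjusted p = 0.938). Its log2 fold change was -0.01, and -0.07 on leaving out wild type replicate 2 (edgeR adjusted p = 0.667). RefSeq places Kcnmb3 over part of Pik3ca, and reads from such neighbours may be shared. Pik3r1 encodes the regulatory subunits p85α, p55α and p50α. It had 229, 213, 338 and 452 CPM in wild type against 244, 298, 257 and 333 CPM in Fabp4-Ebf2. The 4 Fabp4-Ebf2 libraries lay inside the wider wild-type range, and the fold was 0.919 with an interval of 0.641 to 1.32 (edgeR adjusted p = 0.807). Without wild type replicate 2 the log2 fold change was -0.27 instead of -0.12 (edgeR adjusted p = 0.563).

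Pik3r1 was counted for 2 transcripts with different starts. In GENCODE the shorter one has a first exon of its own and starts inside the gene. Reads counted for the longer transcript beyond those of the shorter one made up 15.1, 8.01, 14.3 and 15.9% of the longer transcript's reads in wild type. The shares were 14.3, 13.7, 16.9 and 17.3% in Fabp4-Ebf2. Wild type replicate 2 was the low one, and the rest lay between 13.7 and 17.3%. The means were 13.3 ± 3.59% and 15.6 ± 1.81% (SD, n = 4 each), and the two-sided exact permutation p was 0.314, where 0.0286 is the smallest that 70 arrangements allow. The shares differed by less than the spread between libraries, and this measure was added after seeing the data.

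The AKT kinases act downstream of phosphoinositide 3-kinase, and in mice AKT2 is the form most tied to glucose uptake in fat. Akt1 had 171, 183, 158 and 167 CPM in wild type against 142, 173, 136 and 162 CPM in Fabp4-Ebf2. Akt1 was mostly lower in Fabp4-Ebf2, with overlap, at a fold of 0.902 and an interval of 0.774 to 1.05 (edgeR adjusted p = 0.464). Akt2 had 169.8, 147, 183 and 183 CPM in wild type against 199.8, 164, 229 and 188 CPM in Fabp4-Ebf2. Akt2 was mostly higher, with replicate 2 of Fabp4-Ebf2 inside the wild-type range, at a fold of 1.14 and an interval of 0.948 to 1.38 (edgeR adjusted p = 0.436). Akt2 had the smallest p of the 10 genes, 0.141 unadjusted (edgeR). When wild type replicate 2 was left out the log2 fold changes were -0.11 for Akt1 and 0.12 for Akt2, instead of -0.15 and 0.19.

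Pde3b encodes the phosphodiesterase that breaks down cyclic AMP when insulin acts on fat cells. It was the most abundant of the 10 genes by reads, with 408, 254, 543 and 502 CPM in wild type. It had 637, 366, 531 and 451 CPM in Fabp4-Ebf2. The groups overlapped over most of their range, and the fold was 1.16, with an interval of 0.794 to 1.70 (edgeR adjusted p = 0.668). Without wild type replicate 2 the log2 fold change went from 0.22 to 0.03 (edgeR adjusted p = 0.952). Foxo1 encodes the transcription factor that insulin signalling holds out of the nucleus. It had 154, 128, 156 and 156 CPM in wild type against 202, 118, 139 and 138 CPM in Fabp4-Ebf2. Replicate 1 of Fabp4-Ebf2 was the highest and replicate 2 the lowest of the 8 libraries, and the means were 149 CPM in both groups, with an interval of the fold of 0.786 to 1.28 (edgeR adjusted p = 0.987). Leaving out wild type replicate 2 turned the sign of its log2 fold change from 0.01 to -0.06 (edgeR adjusted p = 0.874) and brought the wild-type SD from 13.6 to 0.965 CPM.

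**Figure D3:**
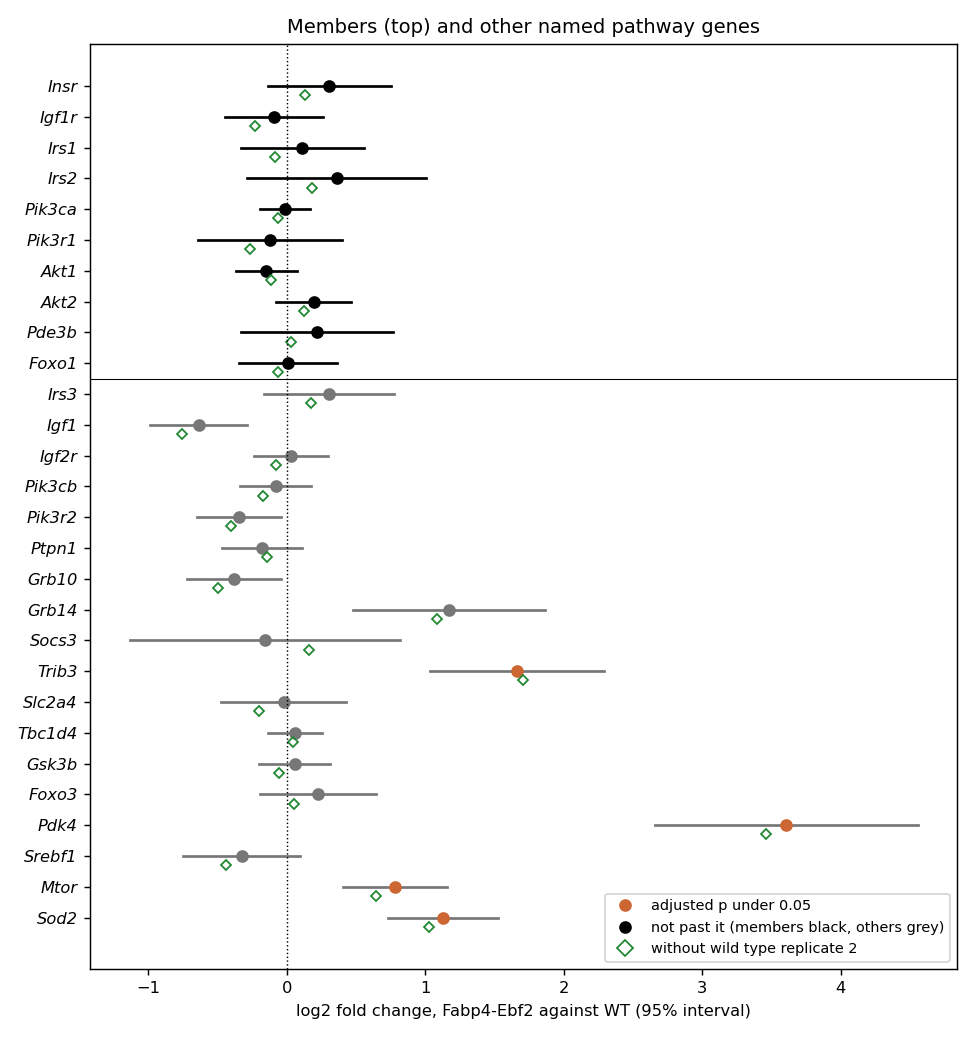
Log2 fold change of Fabp4-Ebf2 against wild type with its 95% interval (edgeR), for the 10 genes and for other named genes of the pathway, with diamonds for the values without wild type replicate 2. The intervals of the 10 genes include 0, those of the 4 called genes Trib3, Pdk4, Mtor and Sod2 lie above it, and those of Grb14 (above) and of Igf1, Pik3r2 and Grb10 (below) do not reach it though these genes did not pass after adjustment.

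Levels were set side by side per length, as CPM per kb of the matched transcript, with lengths known for 10 of 10 genes. The wild-type values include replicate 2, which was low in long transcripts, and the order was not worked out without it. In wild type Pde3b (64.9 ± 19.5 CPM per kb, SD, n = 4) and Akt1 (63.1 ± 3.76) led, and they did not differ beyond their spread. Pik3r1 (43.3 ± 15.6) and Akt2 (37.6 ± 3.71) followed, again within their spread. Akt2 was above Insr (19.7 ± 5.15) in 4 of 4 wild-type libraries without overlap. Insr and Foxo1 (17.1 ± 1.57) overlapped, and Foxo1 was above Pik3ca (10.9 ± 0.701) without overlap. Pik3ca and Irs1 (9.43 ± 2.74) did not differ beyond their spread. Irs1 was above Irs2 (5.68 ± 1.72) in each of 4 wild-type libraries, and Irs2 above Igf1r (3.14 ± 0.665), though the ranges of both pairs overlapped. In Fabp4-Ebf2 the levels per kb ran from 75.5 ± 17.5 for Pde3b to 2.94 ± 0.314 for Igf1r, and the order was the same but for Akt2 (43.0 ± 6.02), which was above Pik3r1 (39.8 ± 5.65) within their spread.

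Ratios of 2 genes in the same library do not depend on the scaling of libraries. The log2 ratio of Akt2 to Akt1 reads was -0.01, -0.31, 0.21 and 0.13 in wild type and 0.49, -0.08, 0.76 and 0.21 in Fabp4-Ebf2. Its mean was 0.34 higher in Fabp4-Ebf2, with overlap (two-sided exact permutation p = 0.171). The log2 ratio of Insr to Igf1r was 2.45, 2.20, 2.53 and 2.20 in wild type and 3.12, 2.26, 2.93 and 2.71 in Fabp4-Ebf2. In 3 of 4 Fabp4-Ebf2 libraries it exceeded the wild-type libraries, and the mean difference was 0.41 (exact permutation p = 0.114). Without Fabp4-Ebf2 replicate 2 both of these ratios had an exact permutation p of 0.0571, the smallest that 3 against 4 libraries allow. Without wild type replicate 2 the mean difference was 0.24 for Akt2 to Akt1 (exact permutation p = 0.343). For Insr to Igf1r it was then 0.36 (exact permutation p = 0.229). The smallest differences on leaving out 1 library were 0.21 for Akt2 to Akt1 (without Fabp4-Ebf2 replicate 3) and 0.29 for Insr to Igf1r (without Fabp4-Ebf2 replicate 1). Irs1 to Irs2 had a mean log2 ratio of 1.26 ± 0.25 in wild type and 1.09 ± 0.56 in Fabp4-Ebf2 (SD, n = 4 each; exact permutation p = 0.600). Pik3r1 to Pik3ca had 1.59 ± 0.47 and 1.54 ± 0.28 (exact permutation p = 0.886). Adjusted over the 4 ratios, the exact permutation p-values were 0.343, 0.343, 0.800 and 0.886, so that none differed beyond the spread between libraries.

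**Figure D4:**
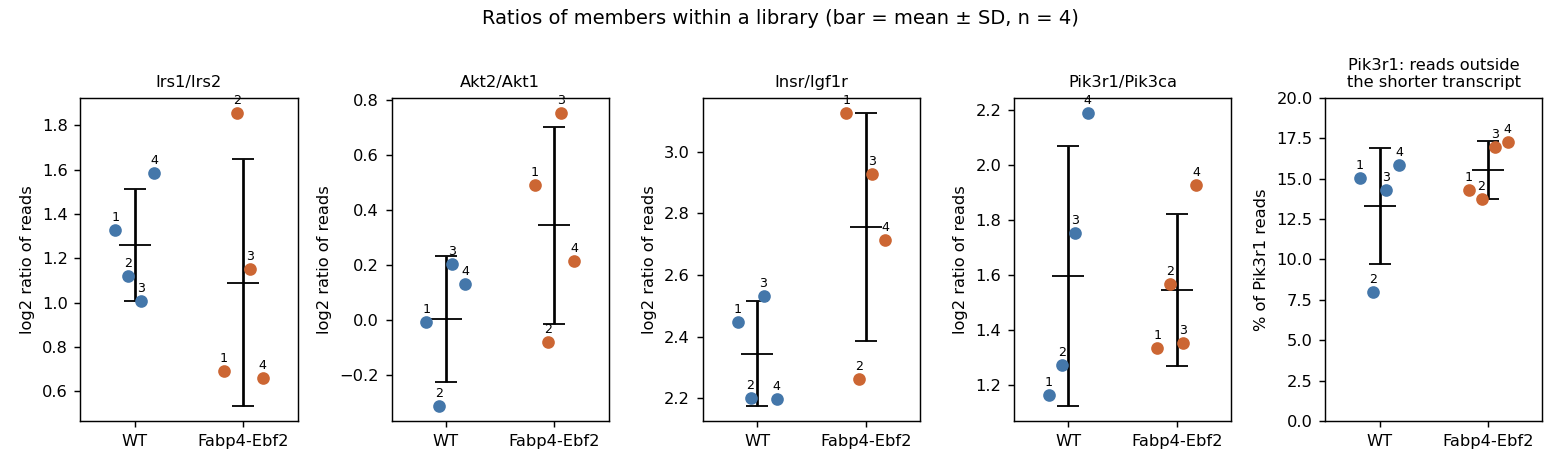
Log2 ratios of reads of 2 genes within each library for 4 pairs, and the Pik3r1 share, with bars for the mean ± SD of 4 libraries. That share is the longer transcript's reads minus the shorter one's, as a percent of the longer transcript's reads. The genotypes overlap in each panel, and the Pik3r1 share of wild type replicate 2, 8.01%, lies below the other 7.

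Within the genotypes the 10 genes varied together in part. Likeness was measured as Pearson's r between the deviations of log2 CPM from the group means over 8 libraries, and is a description only, since the libraries share depth and quality. Of 45 pairs 35 had r above 0, with a median of 0.47. Insr and Pde3b were the most alike (r = 0.96), followed by Insr with Irs1 (0.83) and Akt2 with Pde3b (0.82). Akt1 had negative r with each of the other 9, at the extremes with r of -0.93 with Akt2, -0.81 with Pde3b and -0.76 with Insr. Much of this rested on 1 library. Over pairs, the median without wild type replicate 2 was -0.08 with 19 above 0, and Insr with Irs1 had r = -0.31. Over the remaining 7 libraries r was 0.92 for Insr with Pde3b and 0.75 for Akt2 with Pde3b, and for Akt1 it was -0.93 with Akt2, -0.86 with Pde3b and -0.88 with Insr. Akt1 then had positive r with 3 of the other 9 genes, at 0.63 with Igf1r (from -0.05), 0.34 with Irs1 (from -0.35) and 0.26 with Pik3r1 (from -0.03).

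**Figure D5:**
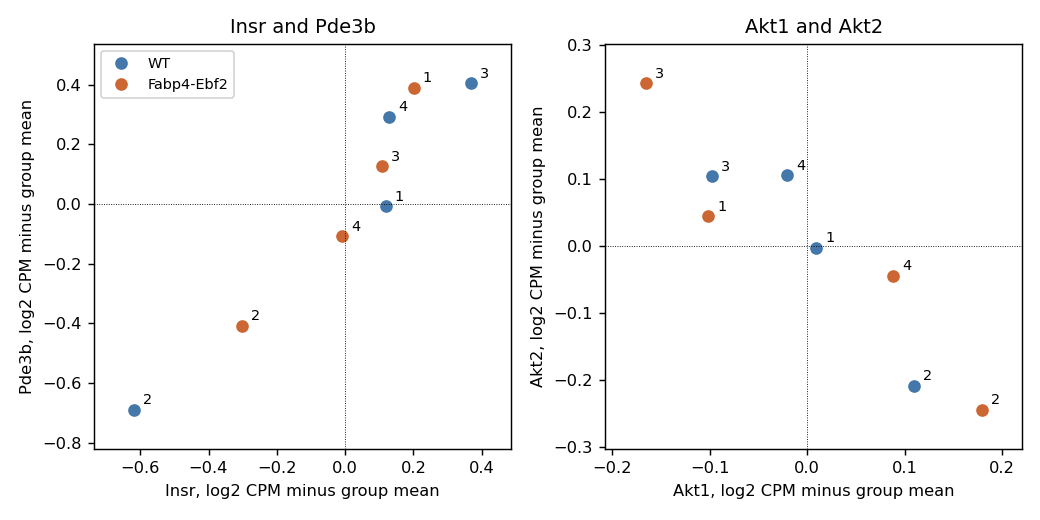
Deviation of log2 CPM from the group mean for Insr against Pde3b and for Akt1 against Akt2, each point being 1 library with its replicate number. Insr and Pde3b rise together (r = 0.96), and Akt1 falls as Akt2 rises (r = -0.93).

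The rest of the pathway was read from 7 lists of 106 genes in all that are not among the 10, of which 103 were tested. By edgeR 4 were called higher and 0 lower (3.88%, beside 3.42% of all tested genes), and the median log2 fold change was 0.06. An unadjusted p under 0.05 by edgeR was reached by 22 (21.4%, beside 17.5% of all tested genes), 5 of them with lower means. DESeq2 called 11 higher and 1 lower (11.7%, beside 8.23% of all genes it tested). The 4 that rose were Pdk4, Sod2, Trib3 and Mtor. Without wild type replicate 3 or 4 a single gene rose in each case, and without Fabp4-Ebf2 replicate 2 there were 7. With the skeletal muscle markers as a covariate 0 of the 103 passed, and 1 of all tested genes did. The muscle sums did not overlap between the genotypes.

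Among ligands, receptors and adaptors 0 of 17 tested genes passed by edgeR (2 at an unadjusted p under 0.05, 2 by DESeq2). The shares over all genes tested by each rule were 3.42%, 17.5% and 8.23%. Igf1, the growth factor ligand of the Igf1r receptor, had 247, 190.0, 276 and 289 CPM in wild type. It had 126, 172, 179 and 167 CPM in Fabp4-Ebf2, without overlap. Igf1 lay just outside the threshold at a log2 fold change of -0.64 (edgeR adjusted p = 0.0613, SE 0.16). Its call depended on the setting, with an edgeR adjusted p of 0.0270 without wild type replicate 2, 0.0378 without scaling factors, 0.0462 with upper-quartile factors, and 0.00329 by DESeq2. Over all its alternatives the adjusted p ran from 0.00329 to 0.695, lower in Fabp4-Ebf2 each time. Irs3, an adaptor that rodents express in fat, had 47.8 ± 8.35 CPM in wild type against 59.0 ± 17.9 CPM in Fabp4-Ebf2 (edgeR adjusted p = 0.483). Igf2r, which clears IGF2 from the cell surface, had 136 ± 20.9 and 139 ± 10.4 CPM.

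Of the other phosphoinositide 3-kinase and AKT genes 0 of 10 passed by edgeR (1 at an unadjusted p under 0.05, 0 by DESeq2). Over all genes tested by each rule the shares were 3.42%, 17.5% and 8.23%. The median log2 fold change of the 10 was -0.04. The catalytic Pik3cb had 61.7 ± 7.60 CPM in wild type against 58.4 ± 6.25 CPM in Fabp4-Ebf2. The regulatory Pik3r2 had 69.1 ± 8.77 and 54.3 ± 9.03 CPM (log2 fold change -0.35, edgeR adjusted p = 0.219, SE 0.13).

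Among the brakes on the pathway 1 of 22 tested genes rose by edgeR (4.55%, beside 3.42% of all tested genes). An unadjusted p under 0.05 by edgeR was reached by 5, 2 of them with lower means, beside 17.5% of all tested genes. DESeq2 called 3, beside 8.23% of all genes it tested. Trib3, a pseudokinase that can bind AKT and responds to cell stress, had 7.82, 9.99, 8.62 and 9.87 CPM in wild type. It had 22.8, 15.4, 35.0 and 41.6 CPM in Fabp4-Ebf2, above the wild-type libraries in 4 of 4. It rose by 1.66 on the log2 scale (edgeR adjusted p = 0.0170, SE 0.28), but the call was lost on leaving out wild type replicate 3 or 4 (edgeR adjusted p = 0.0594 and 0.0624). With the skeletal muscle covariate its log2 fold change was 0.66 (edgeR adjusted p = 0.612). Grb14, an adaptor that inhibits the insulin receptor, had 13.4, 8.75, 11.5 and 7.85 CPM in wild type against 26.9, 11.5, 34.6 and 20.8 CPM in Fabp4-Ebf2. Only replicate 2 of Fabp4-Ebf2 lay within the wild-type range, and Grb14 did not pass (log2 fold change 1.17, edgeR adjusted p = 0.0776, SE 0.31). It passed without that library (edgeR adjusted p = 0.0108) and by DESeq2 (adjusted p = 0.00496), and over all its alternatives the adjusted p ran from 0.00496 to 0.779. Its paralog Grb10 had 67.4 ± 12.5 CPM in wild type against 51.7 ± 7.53 CPM in Fabp4-Ebf2 (edgeR adjusted p = 0.229). Ptpn1, a tyrosine phosphatase of the insulin receptor, had 141 ± 10.1 and 124 ± 22.3 CPM. Socs3, a cytokine-induced inhibitor of insulin signalling, had 29.4 to 67.0 CPM in wild type against 19.5 to 76.6 CPM in Fabp4-Ebf2, with replicate 2 the highest in both groups.

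In the mTOR complexes and their outputs 1 of 17 tested genes rose by edgeR (5.88%, beside 3.42% of all tested genes), and DESeq2 called 1. An unadjusted p under 0.05 by edgeR was reached by 6, of which 1 had a lower mean, beside 17.5% of all tested genes. Groups without overlap were seen for 5 of the 17, beside 11.4% of all tested genes. Mtor, the kinase at the centre of both complexes, had 111, 70.3, 102 and 109 CPM in wild type. It had 170.0, 134, 203 and 168 CPM in Fabp4-Ebf2, without overlap. It rose by 0.78 on the log2 scale (edgeR adjusted p = 0.0372, SE 0.17), and by 0.64 without wild type replicate 2 (edgeR adjusted p = 0.0387). The call was lost on leaving out any single one of replicates 1, 3 and 4 of either group, at edgeR adjusted p of 0.0619 to 0.103. Of the substrates and effectors of AKT 0 of 14 passed by edgeR (3 at an unadjusted p under 0.05, 2 by DESeq2). Beside these counts, the shares of all genes tested by each rule were 3.42%, 17.5% and 8.23%. In this list 3 of the 14 had groups without overlap, beside the same 11.4% of all tested genes. The larger differences in that list were of Acly and Pde3a, singled out after their values were seen. Acly, which makes the acetyl-CoA used for fatty acid synthesis, had 467 ± 251 CPM in wild type against 1351 ± 482 CPM in Fabp4-Ebf2 (SD, n = 4 each), without overlap. Its log2 fold change was 1.53 (edgeR adjusted p = 0.0682), and over its alternatives the adjusted p ran from 0.000982 (DESeq2) to 0.180. Pde3a, a phosphodiesterase related to Pde3b, had 5.52 ± 1.61 CPM in wild type against 10.3 ± 1.84 CPM in Fabp4-Ebf2, without overlap. Its log2 fold change was 0.90 (edgeR adjusted p = 0.0655), and over its alternatives the adjusted p ran from 0.00500 (DESeq2) to 0.534. Both passed with edgeR on leaving out wild type replicate 1 (edgeR adjusted p = 0.0404 for Acly and 0.0494 for Pde3a). Slc2a4, the glucose transporter GLUT4, had 257, 132, 234 and 219 CPM in wild type against 210.2, 202, 247 and 168 CPM in Fabp4-Ebf2. Its groups overlapped almost fully (log2 fold change -0.02, edgeR adjusted p = 0.958, SE 0.20). Tbc1d4, the AKT substrate that gates GLUT4 vesicles, had 123 ± 3.03 and 128 ± 12.8 CPM. Gsk3b, a kinase of glycogen metabolism that AKT inhibits, had 86.7 ± 13.6 and 90.1 ± 3.12 CPM. Foxo3, a relative of Foxo1, had 11.5 to 22.3 CPM in wild type and 18.1 to 23.6 CPM in Fabp4-Ebf2.

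FOXO1 can induce a further list of genes in other settings, of which 13 were tested. Their median log2 fold change was 0.18, and by edgeR 2 rose while 0 fell (15.4%, beside 3.42% of all tested genes). An unadjusted p under 0.05 by edgeR was reached by 3, beside 17.5% of all tested genes. DESeq2 called 3, beside 8.23% of all genes it tested. Pdk4, which slows the entry of pyruvate into the tricarboxylic acid cycle, had 159, 71.2, 99.2 and 76.5 CPM in wild type. It had 1444, 524, 1918 and 1055 CPM in Fabp4-Ebf2, a rise of 3.61 on the log2 scale (edgeR adjusted p = 0.00497, SE 0.42). The 4 Fabp4-Ebf2 libraries lay above the wild-type ones, with replicate 2 the lowest of them. Pdk4 is also known from brown fat and is 1 of the 12 brown and beige adipocyte markers summed above, so its rise is counted there too. Sod2, the mitochondrial superoxide dismutase, rose by 1.13 on the log2 scale (edgeR adjusted p = 0.0135, SE 0.18), with means of 142 and 309 CPM. Its libraries held 114 to 172 CPM in wild type and 262 to 412 CPM in Fabp4-Ebf2. The call was lost when wild type replicate 3 or 4 was left out (edgeR adjusted p = 0.0528 and 0.0571). Among lipid genes that insulin induces 0 of 10 passed by edgeR (2 at an unadjusted p under 0.05, 1 by DESeq2). Of all genes tested by each rule, 3.42%, 17.5% and 8.23% passed. The 10 lipid genes had a median log2 fold change of 0.35, with 7 means higher. Of these, Elovl6, Fasn and Scd1, enzymes that make, lengthen or desaturate fatty acids, were singled out after their values were seen. Elovl6 had 102 ± 60.9 CPM in wild type against 259 ± 116 CPM in Fabp4-Ebf2, with overlap (edgeR adjusted p = 0.174). Fasn had 5510 ± 3583 CPM in wild type against 10661 ± 2170.0 CPM in Fabp4-Ebf2, also with overlap (edgeR adjusted p = 0.312). Scd1 had 17113 ± 5437 CPM in wild type against 29878 ± 5574 CPM in Fabp4-Ebf2, without overlap (edgeR adjusted p = 0.219), and passed by DESeq2 (adjusted p = 0.0134). Among the 3 with lower means, Srebf1, the lipogenic transcription factor through which insulin acts, had 553 ± 113 CPM in wild type against 441 ± 90.4 CPM in Fabp4-Ebf2 (edgeR adjusted p = 0.405).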

How the data were processed

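RNA-seq of 8 inguinal fat libraries was analysed from the authors' deposited table of read counts for 28644 RefSeq transcripts (mm9, per the submitters' processing notes). Not given in the sources used here are aligner, counting program and strand. Per the file headers the table also holds the authors' edgeR log2 fold change and their FDR, an adjusted p-value. A further 8 per-sample columns were not used. A gene was represented by the transcript marked best (21967 genes), otherwise by the one with most reads (902 genes). The members and lists were chosen with earlier results of these data known.

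Genes were tested with edgeR 4.0.16 (R 4.3.3): TMM, filterByExpr (15002 genes), glmQLFit and glmQLFTest with genotype, Benjamini-Hochberg at 0.05. The SE was derived from the log2 fold change and its F statistic, and 95% intervals used the t quantile. Log2 CPM had a prior count of 2. For 3 reads the level is 0.116 to 0.178 CPM, and the biological coefficient of variation was 18.7%, so the spread between libraries limited precision. Ratios used exact permutation tests (scipy 1.17.1). The procedure was tested on simulated data. Lengths came from GENCODE M21 transcripts matched by accession, and promoters from RefSeq, both GRCm38, which is not the authors' build.

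Named were Ebf2, the 10 members, 18 fixed pathway genes (2 of them not reported here), and list genes past the threshold. Alternatives were DESeq2 1.42.0, limma-voom (limma 3.58.1), other factors and filters, most-read transcripts, a replicate block, a muscle covariate and each library left out. Leaving out wild type replicate 1 with Fabp4-Ebf2 replicate 2, the pairs without wild type replicate 2, and the comparison of transcript lengths and Pik3r1 shares were added after seeing the data. Figures used matplotlib 3.10.9.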

Additional observations from a re-analysis of the deposited data

Results flagged for a closer look

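Foxo1 in wild type had 1 library far from the others, replicate 2 at 128 CPM, while the other 3 lay between 154 and 156 CPM. That library was also low in long transcripts, and Foxo1 has a transcript of 8665 bases. Tbc1d4 in wild type had its highest library, replicate 1 at 128 CPM, just far enough from the other 3, at 121 to 122 CPM, to be marked. These were 2 of 80 groups of 4 libraries examined, and chance marks about 1 in 20 groups.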

How the results depend on the processing

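The 10 insulin signalling genes had 0 called higher and 0 called lower under each of 19 alternatives, 190 fits in all. Over all genes 420 were higher and 93 lower. DESeq2 gave 848 and 385, the muscle covariate 1 and 0, and leaving out both doubted libraries (wild type replicate 1, with most muscle markers, and Fabp4-Ebf2 replicate 2, with least Ebf2) 513 and 164. Leaving out 1 library gave 88 to 662 higher and 22 to 256 lower. For the wider pathway, 4 were higher and 0 lower. DESeq2 gave 11 and 1, the muscle covariate 0 higher, both doubted libraries left out 7 higher, upper-quartile or no factors 1 lower, and leaving out 1 library 1 to 7 higher and 0 to 1 lower. The cause of these shifts was not tested. With the covariate Ebf2 (log2 fold change 3.80), Pdk4 (3.74), Sod2 (1.33), Trib3 (0.66) and Mtor (0.74) did not pass (edgeR adjusted p = 0.133, 0.291, 0.354, 0.612 and 0.612).

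The labels do not say whether the replicate numbers pair the libraries. The correlations of deviations of same-numbered libraries were -0.13, 0.33, 0.14 and 0.06. Such correlations cannot decide it, since matched libraries need not deviate alike. With the number as a block 7 genes of the wider pathway were higher, 475 of all genes were higher and 123 lower, and 0 of the 10 members passed. The block also put Grb14 past the threshold (edgeR adjusted p = 0.0346, against 0.0776 without it). For the ratios these tests could not pass: pairing by number gave exact sign-flip p of 0.125 to 0.875, where 0.125 is the smallest possible, and leaving out 1 library cannot give an exact permutation p below 0.0571.

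Directions turned in 36 fits, 0 of them past the threshold, and the cause was not tested. With the muscle covariate log2 fold changes turned to -0.14 for Irs2, 0.038 for Igf1r, 0.14 for Pik3ca, -0.090 for Foxo1, 0.11 for Pik3cb, 0.35 for Socs3 and 0.35 for Slc2a4. Foxo1, near 0, turned in 9 of 19 fits, among them DESeq2 (-0.000175), limma-voom (-0.020), RLE factors (-0.000157), upper-quartile factors (-0.035), no factors (-0.040) and the block (-0.018). Igf2r turned to -0.011 with upper-quartile and -0.012 with no factors, and Slc2a4 to 0.0045 with the block and 0.089 without both doubted libraries. Leaving out 1 library gave log2 fold changes of -0.088 to 0.22 for Irs1, -0.065 to 0.029 for Pik3ca, -0.27 to 0.12 for Pik3r1, -0.17 to 0.096 for Foxo1, -0.076 to 0.085 for Igf2r, -0.78 to 0.16 for Socs3, -0.20 to 0.085 for Slc2a4 and -0.057 to 0.11 for Gsk3b. The log2 ratio of Pik3r1 to Pik3ca differed by -0.19 to 0.15.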
